A study of Mus musculus with 12 samples.

Results

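Elf3 and Ehf encode transcription factors of the ETS family, and the H3K4me3 peaks at both genes were compared between embryonic and adult samples of mouse small-intestinal epithelium. H3K4me3, trimethylation of histone H3 at lysine 4, marks the promoters of active and poised genes. The members are all peaks that overlapped 1 of 2 windows of the build mm9, chr1:137145000-137160000 for Elf3 and chr2:103133000-103149000 for Ehf. They were 15 of the 116174 peaks in the 8 deposited lists, 10 in the Elf3 window and 5 in the Ehf window, and fell into 4 of the 24352 regions left when overlapping peaks of all lists were merged. The windows were chosen because peak length in these same libraries differed between groups, so their values are given as a description with no test. No annotation of mm9 was used here, and the assignment of each window to its gene rests on the windows as given.

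The 4 groups had 2 libraries each. They were epithelium of E12.5 embryos, epithelium of E14.5 embryos, adult Lgr5-positive intestinal stem cells (ISC) and adult enterocytes. ISC and enterocytes differ in cell type and not in age. Both kinds of embryonic sample and the enterocytes were sorted for EpCAM, an epithelial marker, and against CD45 (leukocytes) and CD31 (endothelium). ISC were taken by high EGFP under Lgr5, so that group is defined by a reporter. All mice were of mixed C57BL/6 and CD1 background, and both adult groups came from P60 males that carry the Lgr5EGFP-Cre-ERT allele. Per the labels, 250000 cells were sorted for each immunoprecipitation; pooling of animals is not stated. The libraries held 12821255 to 43259380 tags and 11111 to 17658 peaks, and the replicates of a group shared 1 input control.

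ETS proteins bind DNA through a conserved domain that reads a GGAA core. Elf3 and Ehf belong to a subfamily expressed mainly in epithelia. In mice, Elf3 is known to be needed for the maturation of enterocytes and goblet cells of the small intestine, and Ehf for the integrity of skin and colon epithelium. Genes that define a cell type often carry H3K4me3 that spreads beyond the promoter into the gene body.

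The windows held different patterns of the mark across the groups. At Elf3, both E12.5 libraries had 1 short peak, and all 6 later libraries had a peak several times as long that stayed in place in both adult groups. At Ehf, no E12.5 library had a peak, both E14.5 libraries had a short and weak one, both ISC libraries had a long one, and neither enterocyte library had any. Length is given as covered bp, the bp under all peaks of a library that overlap the window. Scaled covered bp is that value divided by a factor per library, 0.72 to 1.28, that equalizes the median covered bp over the 8903 regions called in all 8 libraries.

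**Figure D1:**
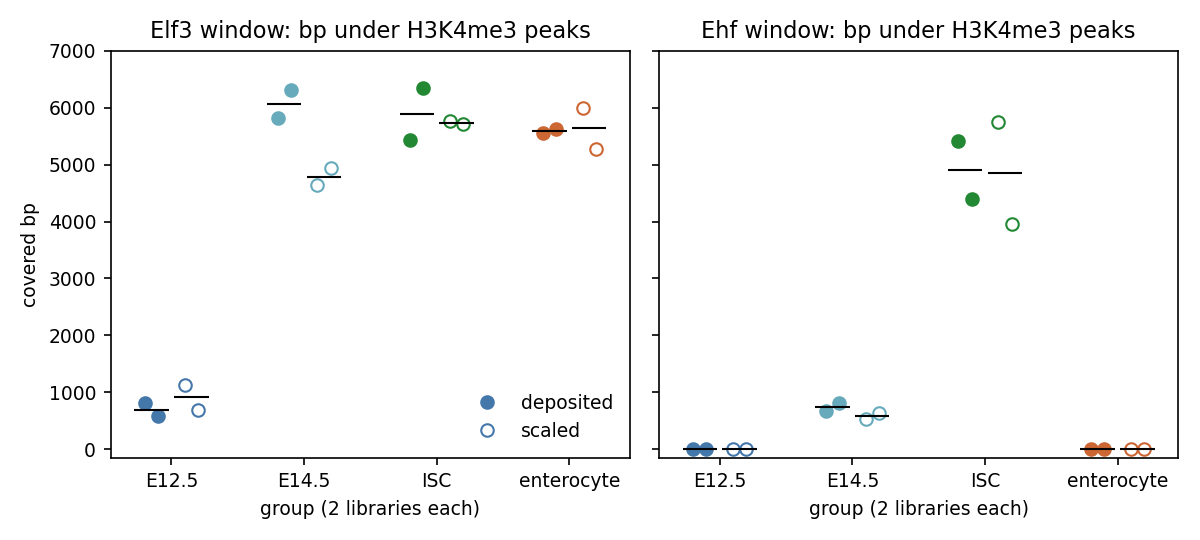
The y axis gives covered bp per library in the Elf3 (left) and Ehf (right) windows, with groups on the x axis. Filled points are the deposited lengths, open points the scaled lengths and lines the means of 2 libraries; scaled Elf3 lies at 1129.7 bp or less at E12.5 and at 4649.9 bp or more in every later library, while scaled Ehf reaches 3959 bp or more in ISC alone.

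Elf3 (NCBI gene 13710) is known as ESE-1 or ESX. It spans 4899 bp on chromosome 1 in the RefSeq annotation of GRCm38.p6, on the minus strand, between Gpr37l1 and Rnpep. The 250 bases before its start, chr1:135258473-135258722 in that build, are shown because H3K4me3 is a promoter mark. The line reads 5′ to 3′ on the minus strand, and capitals mark the ETS core GGAA on either strand.
Elf3 promoter: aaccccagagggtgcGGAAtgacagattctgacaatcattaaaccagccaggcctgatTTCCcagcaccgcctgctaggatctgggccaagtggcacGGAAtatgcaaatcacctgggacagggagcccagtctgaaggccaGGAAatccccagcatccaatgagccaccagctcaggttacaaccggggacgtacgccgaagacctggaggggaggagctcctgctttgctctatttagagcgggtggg
The core occurs 4 times, 3 on the strand shown and 1 on the other, and 93.4% of the 32851 RefSeq promoters of this length hold at least 1. At least 4 copies were found in 33.4% of them. Other motifs searched on both strands were CCAAT (1 copy, in 33.8% of all promoters), TATAAA (0 copies, 12.4%), GGGCGG (0 copies, 32.7%) and TTTATG, a core read by CDX factors (0 copies, 10.8%). None of the matches overlap each other. The sequence holds 8 CG dinucleotides, against a median of 6 over all promoters, and 57.2% G or C, against a median of 52.4%. These letters come from another build than the peaks, so the place of each match under a peak was not determined.

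At E12.5 the mark at Elf3 was short. The window held 1 peak of 813 bp in replicate 1 and 1 of 582 bp in replicate 2, and the shorter lay wholly inside the longer. Their widths exceeded 44.5% and 27.4% of the peaks in their own lists, and their −log10 q, the peak caller's measure of confidence against input, exceeded 46.1% and 30.5%. An Elf3 peak at E12.5 was thus near or below the middle of its list by both measures.

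At E14.5 the Elf3 window was covered over 5822 and 6302 bp, against 813 and 582 bp at E12.5. The libraries did not overlap between the groups. Scaled covered bp averaged 4791.2 ± 199.8 in E14.5 libraries and 911.5 ± 308.7 in E12.5 libraries (SD, n = 2 each), a difference of 3879.7 bp ± 260 (SE) and a ratio of 5.26, or 8.69 without scaling. By size of this difference the window ranked behind 1 of the 17679 regions called in at least 2 libraries, which is the property it was chosen for. Of those regions, 41.9% were longer at E14.5 with no overlap between libraries, and 28.1% were also at least 2-fold longer. The libraries held 43259380 and 22718162 tags at E14.5, against 15053166 and 22696869 at E12.5, and the lists as a whole covered 23132815 and 24275691 bp at E14.5, against 11528423 and 14318920 bp at E12.5. The part of depth and of list length in the difference at Elf3 was not tested.

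The longer peak extended mostly to one side of the E12.5 peak. A stretch of 582 bp, from 137154428 to 137155009 on chromosome 1 (mm9), was covered in all 8 libraries and is the whole E12.5 replicate 2 peak. Beyond it, the main peak of the 6 later libraries reached 4093 to 4666 bp towards lower coordinates and 648 to 865 bp towards higher ones. Elf3 is annotated on the minus strand, so lower coordinates lie in the direction of its transcription if the strand is the same in mm9. The 5323 bp from 137150335 to 137155657 were covered in all 6 later libraries, a stretch longer than the annotated gene. Of the 6718 bp covered in any library, 67.1% were covered in exactly these 6 and 8.66% in all 8.

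**Figure D2:**
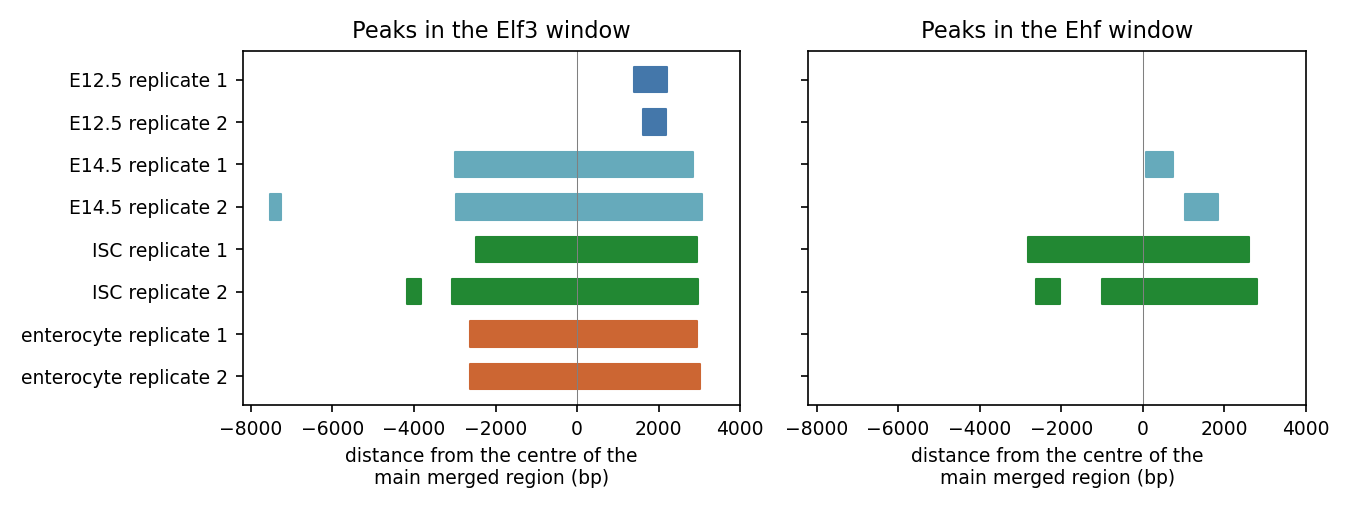
Bars show the peaks of each library against the distance in bp from the centre of the longest merged region of each window. Libraries run from E12.5 at the top to enterocytes at the bottom. In the Elf3 window (left) the 6 later libraries share both edges to within 573 bp, and in the Ehf window (right) the 2 E14.5 peaks lie apart inside the ISC peaks.

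The edges of the Elf3 peak were then nearly constant. Over the 6 libraries after E12.5, the lower edge varied over 573 bp, from 137149762 in ISC replicate 2 to 137150335 in ISC replicate 1. The upper edge varied over 217 bp, from 137155657 in E14.5 replicate 1 to 137155874 in E14.5 replicate 2. In both cases the extremes came from the 2 replicates of 1 group, and the edges of the other libraries lay between them. The lower edges at E14.5, 137149836 and 137149852, nevertheless lay below both of those in enterocytes. The lower edges of the enterocyte replicates were 137150201 and 137150200, 1 bp apart, and these libraries shared 5560 bp of the 5629 bp covered in either.

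In ISC the Elf3 window was covered over 5430 and 6350 bp, against 5822 and 6302 bp at E14.5. The deposited lengths overlapped between these groups, with a difference of -172 bp, whereas the scaled lengths were 947.2 bp ± 143.7 (SE) longer in ISC and did not overlap; the direction thus depended on the scaling. Scaled means were 5738.4 ± 36.9 in ISC and 4791.2 ± 199.8 at E14.5 (SD, n = 2 each), a ratio of 1.2. Over all regions, 20.8% were longer in ISC with no overlap, and 4.17% were also at least 2-fold longer.

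Enterocytes were covered over 5560 and 5629 bp at Elf3, against 5430 and 6350 bp in ISC. The libraries overlapped on both scales. Scaled means were 5639.7 ± 510.1 in enterocytes and 5738.4 ± 36.9 in ISC (SD, n = 2 each), a difference of -98.7 bp ± 361.6 (SE). In size this difference was below its SE and the SD in enterocytes, and above the SD in ISC. The comparison of enterocytes with E14.5 again turned with the scaling, with a difference of 848.5 bp ± 387.4 (SE) after scaling and of -467.5 bp before it; 25.7% of all regions were longer in enterocytes with no overlap and 8.16% were also at least 2-fold longer. Against E12.5, with scaled 911.5 bp, enterocytes were 6.19 times and ISC 6.3 times as long. At these pairs, 26.1% of all regions in enterocytes and 24.9% in ISC were longer than at E12.5 with no overlap, and 15.9% and 14.6% were also at least 2-fold longer.

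The main Elf3 peak was among the widest of each later list. By width it ranked 60 of 16225 and 50 of 17658 peaks in the E14.5 lists. In the ISC lists it ranked 28 of 13213 and 36 of 15617, and in the enterocyte lists 38 of 11650 and 83 of 17007. In each of these lists it was wider than at least 99.5% of the peaks. Its −log10 q exceeded 82% and 80.3% of the peaks of E14.5 lists, 70.6% and 82% of ISC lists, and 85.4% and 74.5% of enterocyte lists. The authors' fold over input placed it above 72.8% and 74.1% of E14.5 peaks, 67.3% and 76.5% of ISC peaks, and 87.4% and 87.5% of enterocyte peaks. The peak was therefore further out in its lists by width than by q or by fold. Whether q and fold depend on the width of a peak in these broad lists was not tested.

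**Figure D3:**
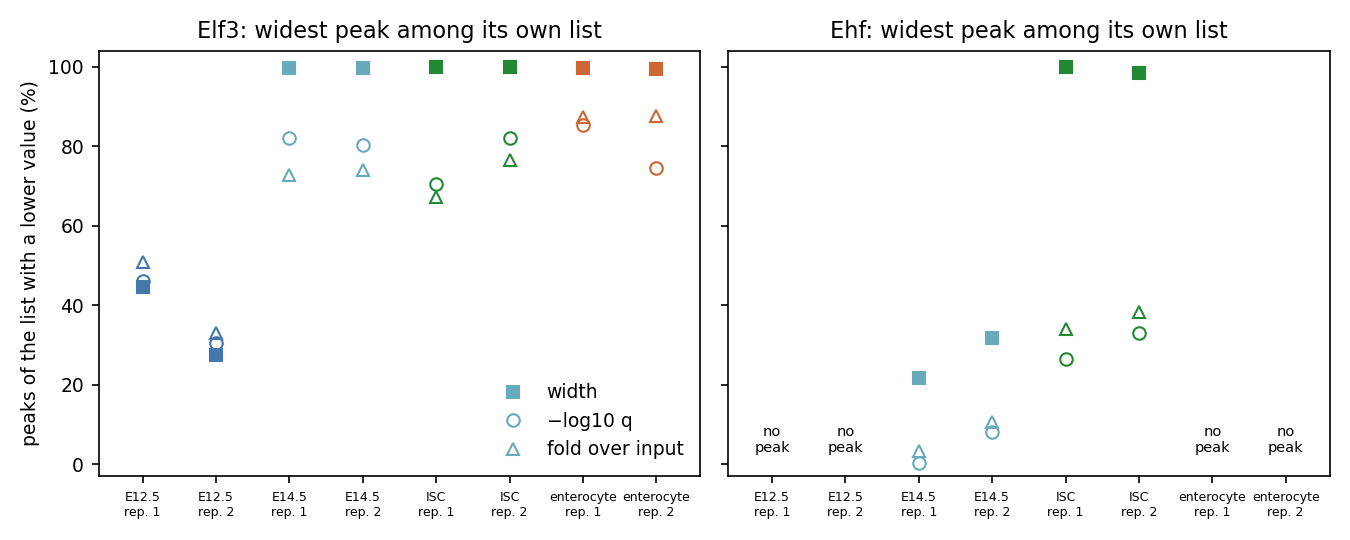
The y axis gives the share of peaks in a library's own list with a lower value than its widest peak in the window. Libraries are on the x axis, for Elf3 (left) and Ehf (right). Squares are width, circles −log10 q and triangles fold over input; Elf3 is high in all 3 after E12.5, while Ehf in ISC is at 99.8% and 98.3% by width and between 26.4% and 38.3% by q and fold.

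Ehf (NCBI gene 13661), also called ESE-3, spans 39845 bp on chromosome 2 in the GRCm38.p6 annotation. Its nearest protein-coding neighbours there are Apip and Elf5, and Elf5 is a further ETS factor of epithelia. At E12.5 the Ehf window had 0 peaks in both libraries, at 15053166 and 22696869 tags. An empty window means that no peak passed the authors' caller at this depth, and the lists hold no reads from which a lower level could be read.

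At E14.5 each library had 1 peak in the Ehf window, of 670 and 814 bp, against 0 and 0 bp at E12.5. The scaled mean was 586.1 bp ± 72.1 (SD, n = 2) at E14.5, so the libraries did not overlap, as was so for 41.9% of all regions in this direction, 28.1% with the 2-fold rule. The 2 peaks did not share a base. The first ran from 103141778 to 103142447 and the second from 103142751 to 103143564 (chromosome 2, mm9), 303 bp apart. Their −log10 q of 1.23 and 2.23 exceeded only 0.407% and 8.06% of the peaks in their lists, so both sat near the lowest confidence listed. The call at E14.5 did not hold under stricter lists: with −log10 q of at least 2, the cutoff in the headers, replicate 1 had 0 bp, and with each list held to its 11111 best peaks by q both replicates had 0 bp.

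In ISC the Ehf window was covered over 5412 and 4401 bp, against 670 and 814 bp at E14.5. The libraries did not overlap, and the deposited lengths differed by 4164.5 bp. Scaled means were 4852.2 ± 1263.2 in ISC and 586.1 ± 72.1 at E14.5 (SD, n = 2 each), a difference of 4266.1 bp ± 894.7 (SE) and a ratio of 8.28, or 6.61 without scaling. At least 2-fold longer with no overlap were 4.17% of all regions in this comparison, one whose values helped choose the window. Against 0 bp at E12.5, ISC were longer by the full 4852.2 bp, and 24.9% of all regions were longer with no overlap.

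The ISC replicates differed in how the Ehf peak was cut. Replicate 1 had a single peak from 103138900 to 103144311, and replicate 2 had a peak of 3795 bp from 103140720 to 103144514 and one of 606 bp from 103139082 to 103139687, with 1032 bp between them. The replicates shared 4198 bp, which is 77.6% of replicate 1 and 95.4% of replicate 2. Both E14.5 peaks lay wholly inside the ISC peaks of each replicate.

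By width the ISC peak at Ehf was extreme, and by confidence it was not. It ranked 29 of 13213 in replicate 1, next to the Elf3 peak at rank 28, and the longer peak of replicate 2 ranked 269 of 15617. Its −log10 q of 4.96 and 8.99 exceeded 26.4% and 33.1% of the list, against 70.6% and 82% for the Elf3 peak in the same libraries. Its fold over input was 4.78 and 5.18, above 34% and 38.3% of the list, against 67.3% and 76.5% for Elf3. The mark at Ehf in ISC was thus as wide as at Elf3 in replicate 1 and lower by q and by fold in both. The part of peak width in these q and fold values was not tested.

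In enterocytes the Ehf window had 0 peaks in both libraries, against 5412 and 4401 bp in ISC. The scaled difference was -4852.2 bp ± 893.2 (SE), and 8.97% of all regions were at least 2-fold shorter in enterocytes with no overlap. Shorter with no overlap, whatever the fold, were 21% of all regions. The libraries held 12821255 and 22137910 tags in enterocytes, against 13355462 and 25547814 in ISC, and each group had its own input; the part of depth and input in this difference was not tested. Compared with E14.5, enterocytes were shorter by the full 586.1 bp, and 43.7% of all regions were shorter with no overlap (28.6% with the 2-fold rule). The pattern of calls at Ehf, present in both E14.5 and both ISC libraries and in none of the other 4, was shared by 128 of the 17679 regions (0.724%), Ehf included. As the E14.5 peaks were lost under the stricter lists above, the E14.5 part of this pattern depended on the threshold. The ISC part held under those lists, but with −log10 q of at least 10 both ISC libraries had 0 bp as well.

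Elf3 and Ehf therefore differed most in enterocytes, where the Elf3 window was covered over 5560 and 5629 bp and the Ehf window over 0 and 0 bp in the same 2 libraries. In ISC both were long, with 5430 and 6350 bp at Elf3 and 5412 and 4401 bp at Ehf. At E14.5 the Elf3 window had 5822 and 6302 bp and the Ehf window 670 and 814 bp. In order of scaled mean, Elf3 ran E12.5, E14.5, enterocytes and ISC, with enterocytes and ISC overlapping; by deposited length the 3 later groups came in the order enterocytes (5594.5 bp), ISC (5890 bp) and E14.5 (6062 bp), and ISC overlapped both of the others. With the widest peak alone, the scaled mean at Elf3 was 47.9 bp higher in enterocytes than in ISC, so their order was not stable. Ehf ran E12.5 and enterocytes at 0, then E14.5, then ISC.

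Regions near the windows were compared in the same way. Within 500 kb of the Elf3 window lay 20 other regions, 7 of them called in all 8 libraries. In those 7, the ratio of scaled means of E14.5 to E12.5 was between 0.836 and 1.47, with a median of 0.942, beside 5.26 at Elf3. For the later comparisons Elf3 lay within the range of these neighbours, with a ratio of ISC to E14.5 of 1.2, beside 0.753 to 1.31, and of enterocytes to ISC of 0.983, beside 0.423 to 1.53. Counting also regions called in fewer libraries, 16 were called in both libraries of some group. Of these, 8 were longer and 2 shorter at E14.5 than at E12.5 with no overlap, beside 41.9% longer over all regions. The longest by mean covered bp was the region from 137177609 to 137180955, 17609 bp from the window, which was covered over 1898 and 1978 bp at E14.5, against 957 and 1166 bp at E12.5. This neighbour was longest in enterocytes, at 2716 and 3316 bp, against 1733 and 2352 bp in ISC. The regions from 137042856 to 137044854 and from 136858239 to 136860269 had ratios of E14.5 to E12.5 of 0.868 and 0.836. The nearest region outside the window on either side, from 137130901 to 137131553, lay 13447 bp away towards lower coordinates. It had 0 bp in all embryonic libraries, 0 and 216 bp in ISC and 230 and 653 bp in enterocytes.

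Within 500 kb of the Ehf window lay 11 other regions, 5 of them called in all 8 libraries. In those 5, the ratio of ISC to E14.5 was between 0.877 and 1.26, beside 8.28 at Ehf, and the ratio of enterocytes to ISC was between 0.704 and 1.44. Taking only regions called in every library leaves out any that is at 0 in some group, as Ehf is. Of the 7 called in both libraries of some group, 3 were longer and 2 shorter in ISC than at E14.5 with no overlap. Over all regions, 20.8% were longer in ISC. Of the same 7, 2 were longer and 1 shorter in enterocytes than in ISC, beside 21% shorter over all regions. One of the 7, from 102739913 to 102741978, was chosen after its values were seen because it ran in the same order as Ehf at smaller size. It was covered over 0 and 0 bp in E12.5 libraries, 1041 and 1235 bp in E14.5 libraries, 2013 and 1354 bp in ISC libraries, and 0 and 1137 bp in enterocyte libraries, with a ratio of ISC to E14.5 of 1.87. The region from 103635538 to 103638510 was covered over 2408 and 2394 bp in enterocytes, against 2438 and 2635 bp in ISC. The region from 103323410 to 103326044 was longer in enterocytes, at 2518 and 2214 bp, against 1511 and 1914 bp in ISC. A further region, from 103405202 to 103407763, had 251 and 2343 bp in enterocytes, against 1591 and 2020 bp in ISC, so its enterocyte replicates disagreed. The nearest regions outside the window were called in 1 library each, 1506 bp in ISC replicate 2 at a distance of 8726 bp and 132 bp in E14.5 replicate 2 at 115327 bp.

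**Figure D4:**
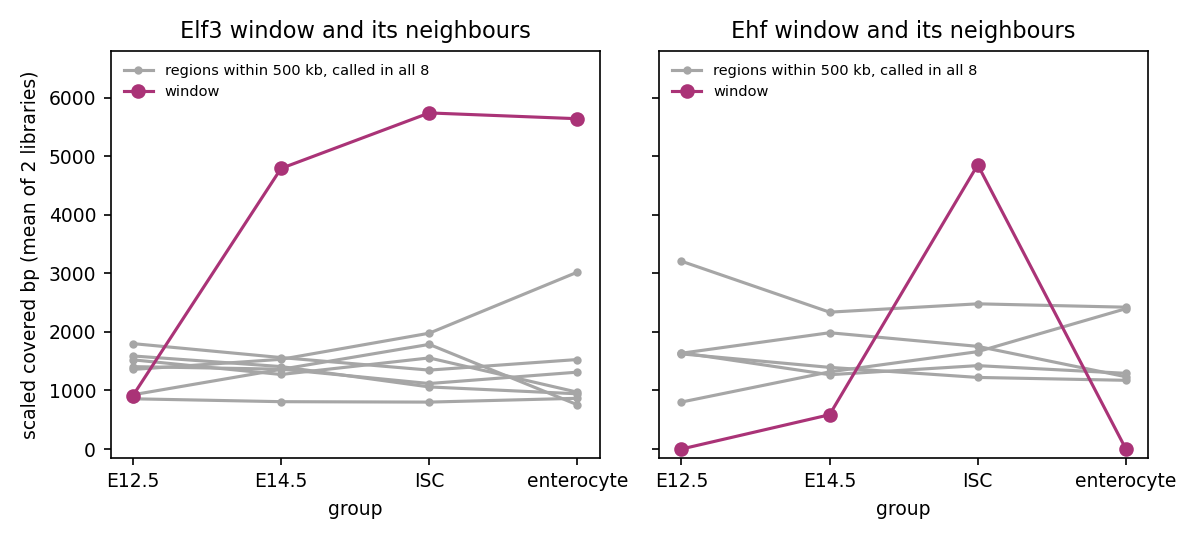
The y axis gives scaled covered bp, as the mean of 2 libraries, by group. Values are for the Elf3 (left) and Ehf (right) windows and for regions within 500 kb called in all 8 libraries (grey, 7 and 5 regions). Lines only join the values of 1 region; the Elf3 window stands above these neighbours from E14.5 on and the Ehf window in ISC alone.

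Elsewhere in the genome, the regions most like each window were taken by the smallest Euclidean distance of log2(scaled covered bp + 200) over the 8 libraries. For Elf3 these were chr1:36527751-36535208 (distance 0.83), chr14:102238857-102244106 (1.36) and chr10:80746802-80754310 (1.51). The first was covered over 904 and 1059 bp in E12.5 libraries, 5919 and 6007 bp in E14.5 libraries, 5594 and 5895 bp in ISC libraries, and 6146 and 7345 bp in enterocyte libraries. For Ehf they were chr9:44911714-44914636 (1.51), chr10:114940206-114943339 (1.59) and chrX:136343049-136346694 (1.59), all with 0 bp in E12.5 and enterocyte libraries. The first of these had 2827 and 2432 bp in ISC, against 1075 and 1540 bp at E14.5, so its ISC peaks were shorter than those of Ehf. These regions were picked for likeness, and the libraries of a group share an input, so the distances describe these 8 libraries only.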

How the data were processed

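H3K4me3 chromatin immunoprecipitation and sequencing gave 1 peak list per library, with replicates not pooled; 4 input samples enter only as the authors' controls. The peak caller, per the file headers, was MACS 2.0.10.20130712, run with its broad option and a cutoff of 0.01 on the q-value. Per the submitters' processing notes, Bowtie 1.1.2, SAMtools 1.2, bcl2fastq 1.8.4 and mm9 were used. Per the file headers, each deposited peak has a length in bp, a pileup signal, −log10 p and −log10 q against input, and a fold enrichment ratio; these were ranked only within their list. The lowest −log10 q of a list was 1.01 to 1.09, so peaks above the stated cutoff are included. The lists give no reads per region, and no interval or floor was computed.

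Groups and replicate numbers came from sample titles. Peaks overlapping by at least 1 bp or touching were merged with Python 3.11.15, NumPy 2.4.6 and pandas 2.3.3. Coverage, scaling and the rule for background shares were tested on simulated lists in which few regions differed between groups. Many more regions differ in the deposited lists, so the simulation does not test the scaling under that condition. A background share is that of regions called in at least 2 libraries whose scaled covered bp did not overlap between groups, with or without a 2-fold difference in means. The members, lists, comparisons and neighbours (the 3 longest within 500 kb per window) were chosen with earlier results of these data known. ETS-family and cell type marker lists were not counted, since the RefSeq table used is of GRCm38.p6 and its positions were not converted; the labelled cell types were not checked against markers. Of the 2 genes, both matched that table and 1, Elf3, a RefSeq promoter sequence. The duplicates are called biological in the design text; whether they came from separate animals is not given in the sources used here.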

Additional observations from a re-analysis of the deposited data

How the results depend on the processing

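Values are differences in covered bp between group means, with no test. Without scaling, Elf3 was 5364.5 bp longer at E14.5 than at E12.5 and the ISC minus E14.5 difference reversed to -172 bp, and Ehf was 742 bp longer at E14.5 than at E12.5. Quantile normalization gave 4413, 481.6 and -758.5 bp at Elf3 (E14.5 minus E12.5, ISC minus E14.5, enterocyte minus ISC) and 390.5 bp at Ehf (E14.5 minus E12.5). With −log10 q of at least 10, no Elf3 peak was left at E12.5, and E14.5 was 4650.7 bp longer. At Ehf no peak was left in any library, so its 3 differences were 0. This cutoff left 1441 and 6514 peaks in the whole E12.5 lists, against 11982 and 11955 in the E14.5 lists. It thus removed far more of the E12.5 lists, whatever the locus. With −log10 q of at least 2, the E14.5 peak of replicate 1 was lost at Ehf and the E14.5 minus E12.5 difference was 320.3 bp. When each list was held to its 11111 best peaks by −log10 q, both E14.5 peaks were lost and that difference was 0, while ISC kept 5412 and 3795 bp. The sign of enterocyte minus ISC at Elf3 also changed with the setting. It was 47.9 bp with the widest peak alone, 28.4 bp with −log10 q of at least 2 and 8.66 bp with lists of equal number. It was -98.7 bp in the main setting, -295.5 bp without scaling and -106.5 bp with −log10 q of at least 10. The cause of the moves with scaling was not tested.

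With each library left out in turn, Elf3 differences ran from 3609.2 to 4281 bp (E14.5 minus E12.5), 782.2 to 1052.2 bp (ISC minus E14.5) and -379.5 to 260 bp (enterocyte minus ISC). Those at Ehf ran from 516.7 to 616.9, 3402.6 to 5084.5 and -5661.8 to -3993.6 bp in the same order. Same-numbered libraries of different groups had deviations that correlated at 0.05 to 0.24 over 8903 regions. Not every pair was above 0.1 and the labels name no shared batch, so the numbers were not taken to pair the samples. With the replicate number as a block, each difference was the same by construction, for example 3879.7 bp with an SE of 359.5 for Elf3 at E14.5 minus E12.5.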

Other observations

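Some small peaks lay apart from the main region of their window, each in 1 library. In the Elf3 window, E14.5 replicate 2 had a peak of 279 bp from 137145281 to 137145559 with a −log10 q of 1.54, and ISC replicate 2 had one of 326 bp from 137148659 to 137148984 with a −log10 q of 1.77. They exceeded 2.49% and 4.66% of their lists by −log10 q. Both are part of the covered bp given for Elf3.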
